A study of Mus musculus with 8 samples.

Results

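In livers of NASH diet–fed mice, 10 marker genes of recruited monocytes and neutrophils were compared between MøFoxO1-KO mice and their WT littermates. The genes were Ly6c2, Itgam, Plac8, Chil3, S100a8, S100a9, Csf3r, Retnlg, Ly6g and Mpo, picked by symbol among the 46517 genes of the deposited count table as known markers of these cells. Of the 6 members with enough counts to be tested, 0 passed the test for a difference between the genotypes, beside 0.188% of all tested genes. All 6 tested members had overlapping groups, where 9.71% of all tested genes had groups that did not overlap. The 4 members with too few counts to be tested had overlapping groups too, and that share does not cover them. The WT mouse WT24 and the MøFoxO1-KO mouse KO29 had the highest member sums of their groups. Both were above the mean of all livers for each of the 6 tested members, as they were for 19.2% of all 13278 tested genes. They were singled out by those sums, so their height for the members is a description, and that share is no test of it. Ly6g, the surface protein that defines mouse neutrophils, was at or close to 0 in every liver.

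MøFoxO1-KO mice carried FoxO1 loxP/loxP alleles together with Lyz2-Cre, in which the lysozyme 2 promoter drives Cre recombinase in macrophages, monocytes and neutrophils. WT littermates carried FoxO1 loxP/loxP without Cre. Both groups were male, on a C57BL/6 background, started the NASH-inducing diet at 6 weeks of age, ate it for 25 weeks and were killed at 31 weeks after a 16-hour fast, with 4 mice per group and 1 whole-liver library of polyadenylated RNA per mouse. Whether blood was flushed from the livers is not given in the sources used here.

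Monocytes and neutrophils are made in the bone marrow and circulate in blood. In an inflamed liver, chemokines and adhesion molecules draw them out of the sinusoids, where monocytes may turn into macrophages and neutrophils release granule proteases, antimicrobial proteins and oxidants. Lobular clusters of such cells are part of the histological picture of NASH, in contrast to Kupffer cells, the macrophages that reside in the sinusoids of a healthy liver. Fewer cells of a type and less RNA per cell cannot be told apart in RNA of a whole tissue.

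Library totals ranged from 15253218 to 18025481 counts. The 10 members held 2375 counts in all 8 livers together, or 18.1 CPM (the standard scaling of counts to a common library total), so counting error weighs on most of the values below. The within-group variance of the 6 tested members was still 7.16 (S100a8) to 28.7 (Plac8) times that of counting alone. Hepatocyte markers dominated every library: Alb alone had between 739748 and 1133977 counts. Foxo1 itself averaged 404 ± 73.9 normalized counts for WT (SD, n = 4) against 359 ± 73.4 for MøFoxO1-KO (edgeR, Benjamini-Hochberg adjusted P = 0.686), which does not test the deletion, since other liver cells express Foxo1. Normalized counts are counts scaled to a common library size by the TMM method of edgeR, and with no record of separate rearing or batches the P values measure the spread between these 8 mice.

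The genes have close relatives, and the reads of a pair can be confused where the sequences match. Ly6c2 lies on chromosome 15 of GRCm38 from 75108158 to 75111970 and encodes the Ly6C antigen used to sort inflammatory monocytes. Its paralog Ly6c1 is known from endothelium. The coding sequences of the pair, 393 bases each, differ at 9 bases (97.7% identity), of which 6 fall in the first 90 bases. Those 90 bases are shown from the start codon, with the differing bases in capitals, because they bear on how far the Ly6c2 counts can be trusted.
Ly6c2: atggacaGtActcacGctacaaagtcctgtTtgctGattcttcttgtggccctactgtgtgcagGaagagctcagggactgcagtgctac
Ly6c1: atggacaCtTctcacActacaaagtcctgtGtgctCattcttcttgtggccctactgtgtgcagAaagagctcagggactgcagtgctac
Chil3, on chromosome 3 from 106147554 to 106167564, encodes the chitinase-like lectin Ym1 and has the paralog Chil4. Over the same stretch the pair differs at 2 bases.
Chil3: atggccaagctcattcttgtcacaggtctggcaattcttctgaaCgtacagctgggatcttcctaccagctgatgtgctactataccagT
Chil4: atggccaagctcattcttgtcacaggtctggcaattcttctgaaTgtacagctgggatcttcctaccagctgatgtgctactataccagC
Of the 100-base windows of the longest protein-coding transcript in GENCODE M21, 15.8% of those of Ly6c2 recur in Ly6c1 and 5.42% of those of Chil3 recur in another gene. The share was 71.0% for Itgam, all with the readthrough gene Gm49368, 6.45% for Mpo, all with Gm11505, and 0.414% for Csf3r. No other gene of the deposited table overlaps the exons of Itgam, so its share does not mark counts contested between overlapping genes. S100a8, S100a9, Plac8, Retnlg and Ly6g shared no such window. Chil4 had 0 counts in all 8 livers.

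Further features of the gene models touch the values. Itgam, on chromosome 7, encodes CD11b, the alpha chain of the Mac-1 integrin. In the deposited table its row runs from 128062640 to 128128160 and takes in 1353 exon bases past the end that GENCODE M21 gives it. Mpo, the myeloperoxidase gene on chromosome 11 from 87793581 to 87804413, shares 15.0% of its exon bases with Gm11505 on the other strand, a gene with 0 counts in every liver.

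Promoters of the members were read for letters that myeloid factors are known to bind. RefSeq lists 13 promoters of 300 bases for the 10 genes (250 before and 50 after the start, GRCm38.p6). On either strand, the letters GAGGAAGT of the PU.1 core occurred in promoters of 4 members (Ly6c2, Ly6g, Mpo and S100a8) and in 3.2% of all 32851 promoters. TTGCNNAA, a core for C/EBP factors, occurred in promoters of 4 members (Ly6g, Plac8, Retnlg and S100a9) and in 10.8% of all promoters. TGTTTAC, the core that FoxO proteins share with other forkhead factors, occurred in Retnlg only among the members and in 3.65% of all promoters. None of the 3 sets of letters overlaps another in these windows, and Ly6c2 and Ly6g are members of a duplicated family, so their matches are not independent. A match is a description of the letters and no evidence of binding. One promoter per case is shown, with the matches in capitals: Ly6c2 (chr15:75111888-75112187, minus strand, PU.1 at 2 places), S100a8 (chr3:90668821-90669120, plus strand, PU.1 on the opposite strand) and Retnlg (chr16:48872358-48872657, plus strand, C/EBP on the opposite strand and then FoxO).
Ly6c2: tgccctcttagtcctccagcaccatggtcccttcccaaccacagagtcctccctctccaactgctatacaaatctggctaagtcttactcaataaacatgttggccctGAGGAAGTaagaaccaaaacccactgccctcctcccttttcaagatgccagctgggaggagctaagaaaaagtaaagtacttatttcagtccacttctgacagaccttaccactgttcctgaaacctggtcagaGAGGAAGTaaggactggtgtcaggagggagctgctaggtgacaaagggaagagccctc
S100a8: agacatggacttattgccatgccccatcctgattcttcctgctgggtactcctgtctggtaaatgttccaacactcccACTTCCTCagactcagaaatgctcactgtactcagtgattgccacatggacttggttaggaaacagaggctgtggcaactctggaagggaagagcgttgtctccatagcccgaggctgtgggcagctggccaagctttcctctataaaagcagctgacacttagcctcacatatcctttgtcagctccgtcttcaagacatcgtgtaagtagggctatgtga
Retnlg: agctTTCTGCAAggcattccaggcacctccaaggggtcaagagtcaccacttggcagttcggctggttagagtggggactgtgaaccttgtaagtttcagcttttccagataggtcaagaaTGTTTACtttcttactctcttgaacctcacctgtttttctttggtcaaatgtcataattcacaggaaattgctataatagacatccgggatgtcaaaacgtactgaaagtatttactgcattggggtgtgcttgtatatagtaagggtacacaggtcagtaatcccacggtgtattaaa

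**Figure D1:**
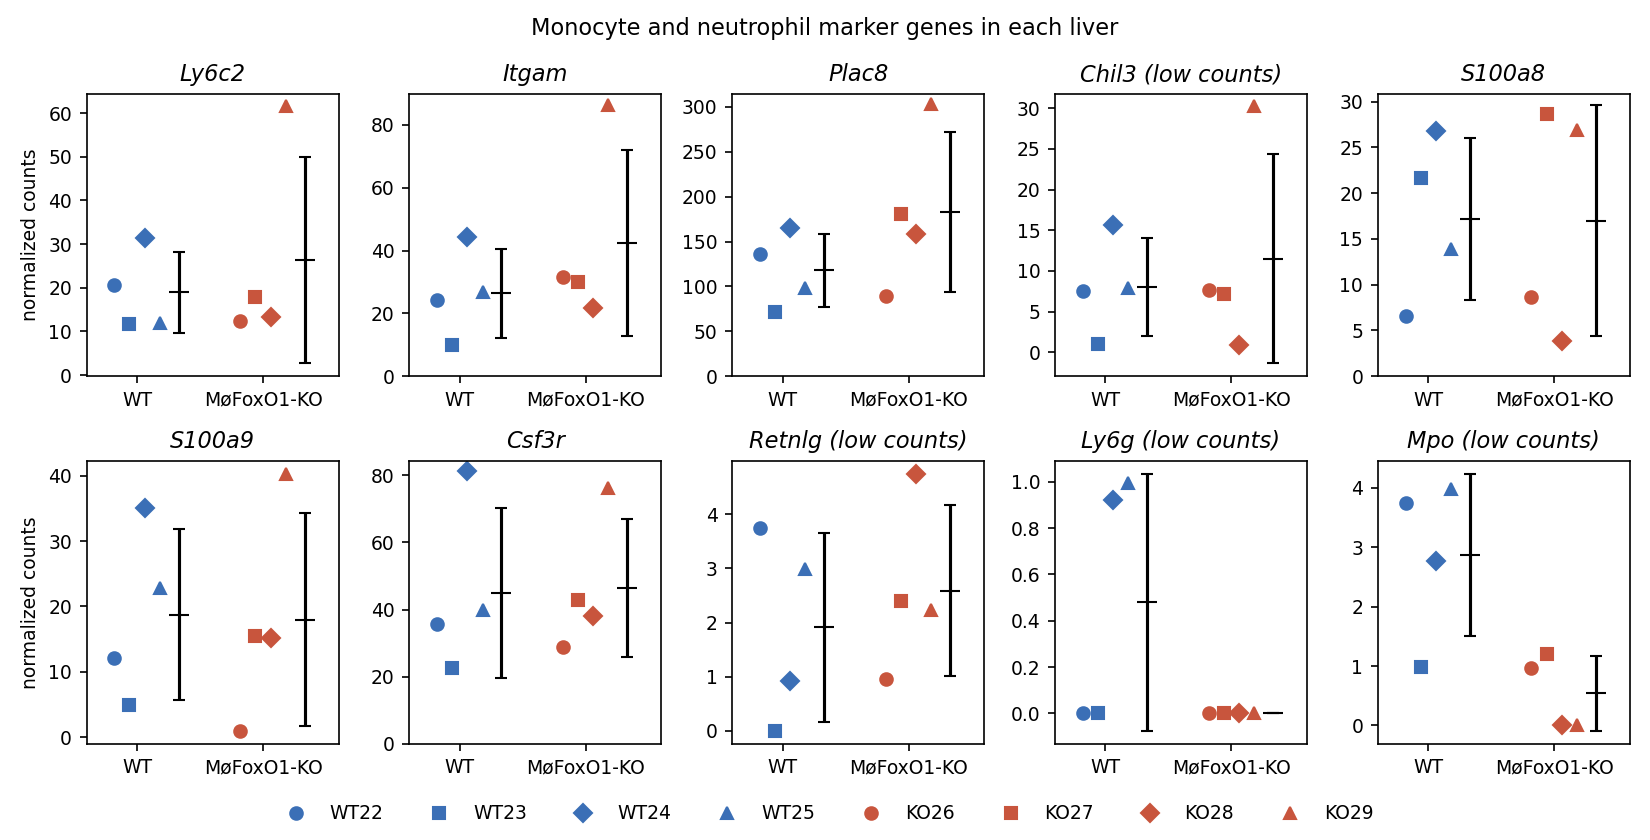
Normalized counts of the 10 members in each liver (vertical axes, a scale per gene; blue, WT; red, MøFoxO1-KO), with the mean and SD of each group in black. The groups overlap for every gene, and KO29, the red triangle, is the highest of all livers for 5 genes.

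Monocyte markers were examined first. In WT22, WT23, WT24 and WT25, normalized Ly6c2 counts were 20.6, 11.8, 31.4 and 11.9. In KO26, KO27, KO28 and KO29 they were 12.5, 17.9, 13.3 and 61.6. A single MøFoxO1-KO liver, KO29, thus stood above all others, and the other 3 lay within the range of the WT livers. Its mean was 18.9 ± 9.26 for WT (SD, n = 4) against 26.3 ± 23.6 for MøFoxO1-KO (P = 0.743 in an exact two-sided permutation test). The fitted log2 fold change for Ly6c2 was 0.46, with a 95% interval from -0.83 to 1.74 (edgeR, Benjamini-Hochberg adjusted P = 0.735), which was -0.39 without KO29.

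Ly6c1 moved apart from Ly6c2. It had 9, 26, 5 and 7 counts in the WT livers and 23, 1, 6 and 4 in the MøFoxO1-KO livers, highest in WT23 and KO26. Ly6c2 made up 31.6% of the counts of the pair in WT23 (95% exact binomial interval 17.5 to 48.7%) and 36.1% in KO26 (20.8 to 53.8%), against 63.2 to 93.8% in the other 6 livers. Summed over the pair, normalized counts averaged 30.3 ± 8.44 for WT (SD, n = 4) against 34.7 ± 22.2 for MøFoxO1-KO (P = 0.83, exact permutation test), a sum that was formed after seeing the data.

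Plac8 (chromosome 5, 100553725 to 100572245), a small cysteine-rich protein of monocytes, granulocytes and some lymphocytes, was the member with the most counts. The WT livers had 136, 71.8, 165 and 98.6 normalized Plac8 counts and the MøFoxO1-KO livers 89.1, 180, 158 and 303. KO29 was again highest and WT23 lowest, with 5 of the other 6 livers between 89.1 and 165. Plac8 averaged 118 ± 41.1 for WT (SD, n = 4) against 183 ± 89.3 for MøFoxO1-KO, a log2 fold change of 0.63 with a 95% interval from -0.18 to 1.44 (edgeR, Benjamini-Hochberg adjusted P = 0.417). This was the smallest adjusted P of the members, and without KO29 the log2 fold change was 0.27.

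For Itgam, whose product lets both cell types adhere to vessel walls and which Kupffer and natural killer cells can express too, the WT livers had 24.4, 9.83, 44.3 and 26.9 normalized counts. The MøFoxO1-KO livers had 31.6, 29.9, 21.8 and 86.2. As with Ly6c2, KO29 stood apart and the remaining livers were mixed. The log2 fold change was 0.68 with a 95% interval from -0.49 to 1.84 (edgeR, Benjamini-Hochberg adjusted P = 0.562), and it was 0.07 without KO29.

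Chil3 did not reach the filter on low counts. It had 8, 1, 17 and 8 raw counts in the WT and 8, 6, 1 and 27 in the MøFoxO1-KO livers. WT24 and KO29 were again the highest of their groups, with overlap between genotypes (P = 0.83, exact permutation test). Without the filter, the log2 fold change of Chil3 was 0.48 with a 95% interval from -1.19 to 2.15 (edgeR, Benjamini-Hochberg adjusted P = 0.811). The log2 ratio of the group means of Chil3 was 0.52, with -0.61 without KO29, 1.07 without WT24 and -0.06 without both, so its direction rested on KO29.

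Neutrophil markers were next. S100a8 (chromosome 3, 90668978 to 90670035) and S100a9 (chromosome 3, 90692632 to 90695721) are neighbors that encode the subunits of calprotectin, an abundant alarmin of the neutrophil cytosol that monocytes also make. Normalized S100a8 counts were 6.56, 21.6, 26.8 and 13.9 in the WT livers and 8.63, 28.7, 3.80 and 26.9 in the MøFoxO1-KO livers. Normalized S100a9 counts were 12.2, 4.92, 35.1 and 22.9 in the WT livers and 0.959, 15.5, 15.2 and 40.3 in the MøFoxO1-KO livers. The values of each gene covered nearly the same range in both genotypes. The log2 fold change was -0.05 for S100a8, with a 95% interval from -1.44 to 1.35 (edgeR, Benjamini-Hochberg adjusted P = 0.98). It was -0.08 for S100a9, with a 95% interval from -1.82 to 1.66 (edgeR, Benjamini-Hochberg adjusted P = 0.971).

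The subunits did not keep a fixed ratio from liver to liver. S100a8 took 81.5% of the summed S100a8 and S100a9 counts in WT23 (95% exact binomial interval 61.9 to 93.7%, 27 counts) and 90% in KO26 (55.5 to 99.7%, 10 counts). In KO28 its share was 20% (5.73 to 43.7%, 20 counts). In WT24 and KO29, the livers with the most counts of the pair, the share was 43.3% (31.2 to 56.0%, 67 counts) and 40.0% (27.6 to 53.5%, 60 counts). WT22 and WT25 had shares of 35.0% (15.4 to 59.2%, 20 counts) and 37.8% (22.5 to 55.2%, 37 counts). The interval of WT23 meets none of those of WT22, WT24, WT25, KO28 and KO29, and all intervals cover counting error only. In KO27 the share was 64.9% (47.5 to 79.8%, 37 counts), and its interval overlaps those of WT23 and KO26 but not that of KO28.

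Csf3r (chromosome 4, 126024550 to 126044440) encodes the receptor for G-CSF, the growth factor that drives the production of neutrophils. The WT livers had 35.6, 22.6, 81.2 and 39.8 normalized counts and the MøFoxO1-KO livers 28.8, 43.0, 38.0 and 76.1. WT24 and KO29 exceeded all the other livers, whichever the genotype. Csf3r averaged 44.8 ± 25.4 for WT (SD, n = 4) against 46.5 ± 20.6 for MøFoxO1-KO, for a log2 fold change of 0.05 with a 95% interval from -0.91 to 1.00 (edgeR, Benjamini-Hochberg adjusted P = 0.97). The log2 ratio of the group means was 0.05, and -0.15 when counts were scaled to library totals without TMM, a scaling that moved the median of all tested genes by -0.15.

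The markers most specific to mature or immature neutrophils were near the limit of detection. Ly6g (chromosome 15, 75155240 to 75159126) had 0, 0, 1 and 1 counts in the WT livers and 0 in all 4 MøFoxO1-KO livers. A count of 0 allows up to 3 counts, which is between 0.169 and 0.218 CPM in these libraries, so a difference in Ly6g was not detectable at this depth and no fold is given. Retnlg (chromosome 16, 48872608 to 48874498), a resistin-like protein of neutrophils, had 4, 0, 1 and 3 counts in WT and 1, 2, 5 and 2 in MøFoxO1-KO livers (P = 0.571 in an exact permutation test). Retnlg was seen as a handful of counts in either genotype, whereas Ly6g was seen in WT24 and WT25 alone.

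Mpo, which encodes the heme enzyme of azurophilic granules and is transcribed mainly in marrow precursors, had 4, 1, 3 and 4 counts in the WT livers. In the MøFoxO1-KO livers it had 1, 1, 0 and 0 counts. The groups met at 1 raw count (WT23, KO26 and KO27), and the exact permutation test of normalized counts gave P = 0.0571, where the smallest P that 4 mice against 4 allow is 0.0286. The summed counts, 2 against 12, had a ratio of MøFoxO1-KO to WT of 0.182 per library size (95% exact interval 0.0197 to 0.816), an interval for counting error that leaves out the spread between mice. Without the filter on low counts, the adjusted P of Mpo was 0.476 (edgeR, Benjamini-Hochberg), and its 95% interval in log2 fold change ran from -4.58 to 0.17.

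**Figure D2:**
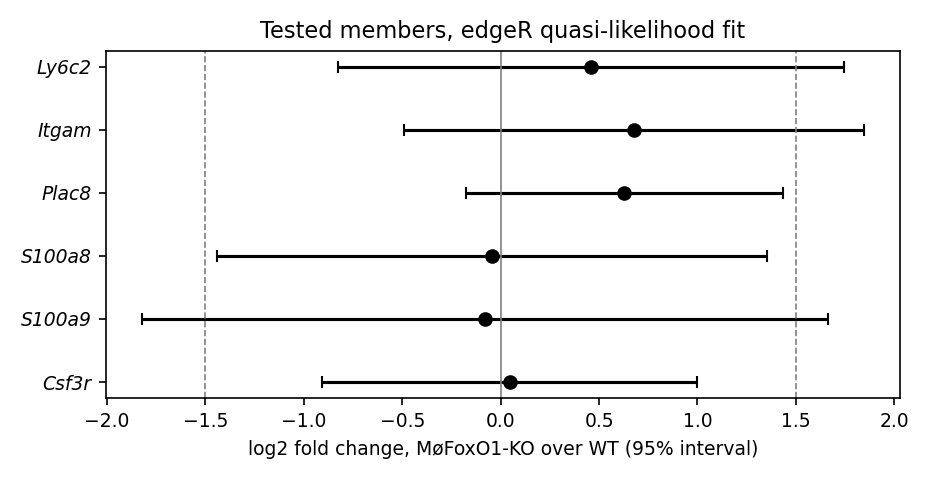
Log2 fold change of MøFoxO1-KO over WT livers (horizontal axis) for the 6 tested members, with 95% intervals from the edgeR quasi-likelihood fit. Solid and dashed vertical lines mark 0 and the limits of 1.5 used for a call, and every interval spans 0.

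Across the 6 tested members, 0 were called at an adjusted P under 0.05 with an absolute log2 fold change over 1.5 (edgeR, Benjamini-Hochberg), beside 25 of all 13278 tested genes, or 0.188%. The DESeq2 Wald test and limma-voom called 0 members as well. Of the 6, 0 had an unadjusted P under 0.05, beside 16.7% of all tested genes, and 0 had groups that did not overlap, beside 9.71% of all tested genes. The log2 fold change was positive for 4 and negative for 2, with a median of 0.25 against -0.01 over all tested genes. A lack of a call does not show equal levels, since the intervals of Ly6c2, Itgam and S100a9 reach past a log2 fold change of 1.5 in size.

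**Figure D3:**
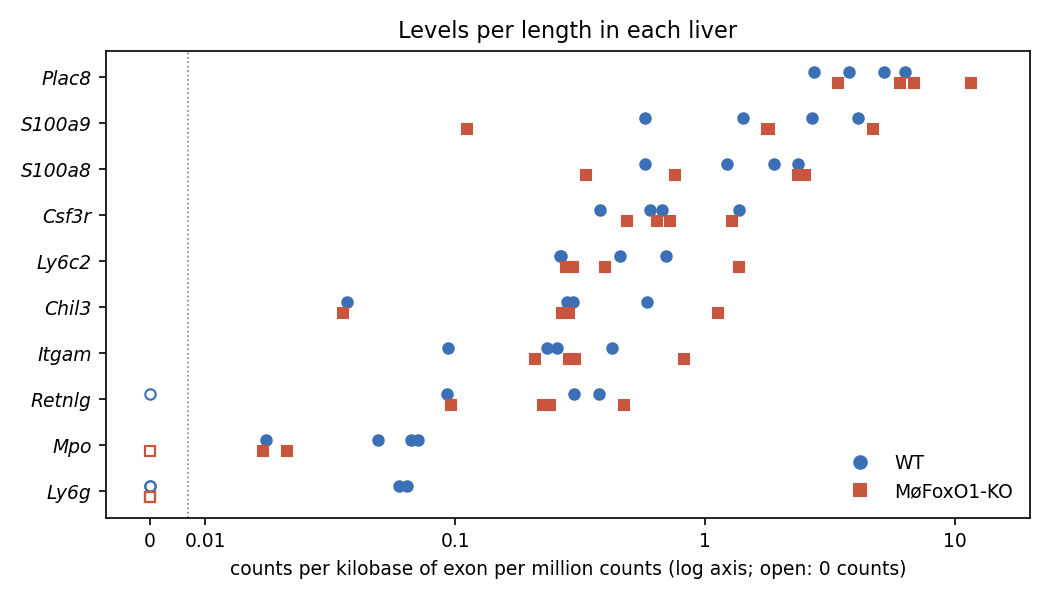
CPM per kilobase of exon (horizontal log axis) of each member in each liver, ordered by the mean of the 8 livers, with WT as circles and MøFoxO1-KO as squares. Open symbols at the left stand for livers with 0 counts and may lie on top of each other, and Plac8 is the only member that lies above the next gene in all 8 livers.

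Levels were set side by side per length, as CPM per kilobase of exon, with TMM-scaled library sizes. Plac8 led with a mean of 5.76 ± 2.80 (SD, n = 8) over all livers and was above the next gene in 8 of 8 livers. S100a9 (2.15 ± 1.6, SD, n = 8) and S100a8 (1.5 ± 0.886, SD, n = 8) did not separate, with S100a9 higher in 5 of 8 livers. Csf3r (0.771), Ly6c2 (0.503), Chil3 (0.365) and Itgam (0.328) followed as means on the same scale, and neighbors in this order overlapped, since Csf3r exceeded Ly6c2 in 7 of 8 livers, Ly6c2 exceeded Chil3 in 6 of 8 and Chil3 exceeded Itgam in 4 of 8. Retnlg (0.225), Mpo (0.0303) and Ly6g (0.0155) came last, at levels where 3 counts in a library of mean size equal 0.301 for Retnlg, 0.0534 for Mpo and 0.194 for Ly6g.

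**Figure D4:**
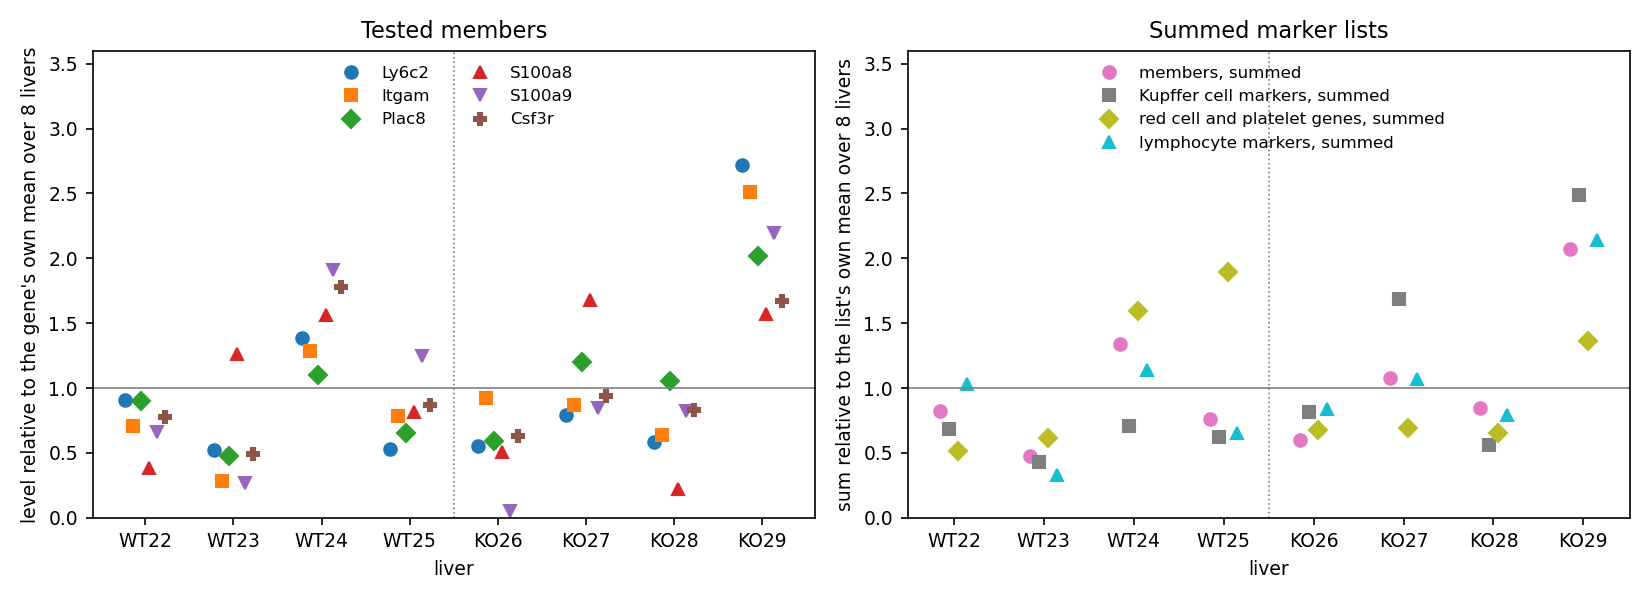
Left, normalized counts of the 6 tested members in each liver, divided by the mean of each gene over the 8 livers. Right, the same for summed marker lists. In both panels the dotted line separates WT from MøFoxO1-KO livers. WT24 and KO29 both lie above 1 for all 6 tested members, as they do for 19.2% of all tested genes. Both were singled out by their member sums, so this is a description.

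The tested members were next set side by side by liver. WT24 and KO29 were singled out because their member sums were the highest of each group, so the values in them are a description. All 6 tested members lay above their own mean in both livers, beside 19.2% of all 13278 tested genes. The median level of the 6, relative to each gene's own mean, was 1.48 in WT24 and 2.11 in KO29, and it was between 0.487 (WT23) and 0.906 (KO27) in the other 6 livers. Summed over the 10 members, normalized counts were 250, 145, 404 and 230 in the WT livers and 181, 326, 256 and 627 in the MøFoxO1-KO livers.

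Sums of Kupffer cell markers and of lymphocyte markers were highest in WT24 and KO29 within their groups. WT24 lay close to WT22, with Kupffer sums of 5559 against 5373 and lymphocyte sums of 209 against 189. For the other cell lists this did not hold in both groups, and KO29 had the lowest endothelial sum of the MøFoxO1-KO livers (2264). The 9 Kupffer cell markers, all tested, summed to normalized counts of 3402 to 5559 for WT and of 4430 to 19483 for MøFoxO1-KO, and KO29 was highest. All 9 had a positive log2 fold change, with a median of 1.08. Of the 9, 7 had an unadjusted P under 0.05, beside 16.7% of all tested genes, and 0 were called (edgeR, smallest Benjamini-Hochberg adjusted P = 0.087). Groups that did not overlap occurred in 1 of the 9 (Timd4), beside 9.71% of all tested genes. Without the filter on low counts, Marco and Timd4 passed the call, beside 120 of 23665 genes. Their log2 fold changes were then 5.16 and 2.06 (edgeR, Benjamini-Hochberg adjusted P = 0.00583 and 0.013). KO27, whose Kupffer markers summed to 13212, had a member sum of 326. Of the 8 lymphocyte markers, 6 were tested and 0 had an unadjusted P under 0.05, their sums were 60.0 to 209 in WT and 145 to 393 in MøFoxO1-KO livers, and KO29 was highest in this list too. The 9 red cell and platelet genes, 8 of them tested and 0 called, summed to 19525 in WT24, 23237 in WT25 and 16725 in KO29, against 6320 to 8465 in the other 5 livers. WT25, with the highest sum of blood genes, had a member sum of 230. No gene of these lists was at 0 in all livers, and the part of these cells and of blood in the members' levels was not tested.

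Further cell types were examined by their markers. Of 6 dendritic cell markers, 3 were tested, 1 had an unadjusted P under 0.05 and the sums were 48.2 to 120 in WT and 83.4 to 146 in MøFoxO1-KO livers. The 5 markers of sinusoidal endothelium were all tested, 0 had an unadjusted P under 0.05, and their sums were 1397 to 2990 in WT and 2264 to 3627 in MøFoxO1-KO livers. The 5 hepatocyte markers, all tested, had positive log2 fold changes with a median of 0.39, 2 (Apoa1 and Serpina1a, named after their values were seen) had an unadjusted P under 0.05 and groups that did not overlap, and 0 were called. Over all tested genes, 16.7% had an unadjusted P under 0.05 and 9.71% had groups that did not overlap. WT23, the liver with the lowest sum of the members, was also the lowest for the Kupffer, lymphocyte, dendritic and endothelial lists.

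The genes that bring these cells to a tissue were examined as a list of 31 chemokines, receptors, growth factors and adhesion molecules, of which 22 were tested. Of these 22, 16 had a positive and 6 a negative log2 fold change, with a median of 0.24. At an unadjusted P under 0.05, 4 were higher and 0 lower, beside 16.7% of all tested genes, and 0 were called. Groups that did not overlap occurred in 9.71% of all tested genes and in 1 gene of the list. That gene was Fpr2, a receptor for formylated peptides that guides neutrophils and monocytes. Its normalized counts were 13.1, 14.7, 26.8 and 15.9 in the WT livers and 26.8, 94.4, 39.9 and 132 in the MøFoxO1-KO livers. WT24 and KO26 nearly touched. The log2 fold change of Fpr2 was 2.04 with a 95% interval from 0.91 to 3.17 (edgeR, Benjamini-Hochberg adjusted P = 0.123; exact permutation test, P = 0.0286), so it was not called. Without the filter on low counts its adjusted P was 0.0444 and Fpr2 passed the call, while the members still did not.

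Ccr2, the receptor that monocytes follow out of the marrow, and its ligand Ccl2 were looked up after the values had been seen. Ccr2 had 74.0, 27.5, 114 and 49.8 normalized counts in the WT livers and 33.6, 27.5, 54.1 and 109 in the MøFoxO1-KO livers. Ccl2 had 38.4, 45.2, 111 and 17.9 in the WT livers and 8.63, 26.3, 30.4 and 92.9 in the MøFoxO1-KO livers. For both genes, WT24 and KO29 were the highest livers of their group, as for Ly6c2. The log2 fold change was -0.25 for Ccr2 and -0.43 for Ccl2 (edgeR, Benjamini-Hochberg adjusted P = 0.844 and 0.791).

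Of the 16 granule and oxidase genes, 8 were tested, with a median log2 fold change of 0.63. At an unadjusted P under 0.05, 3 were higher and 1 was lower in MøFoxO1-KO livers, beside 16.7% of all tested genes. Of the 8, 0 were called. The higher genes were Prtn3, Cyba and Ncf1, with log2 fold changes of 1.58, 1.09 and 1.03 (edgeR, Benjamini-Hochberg adjusted P = 0.274, 0.265 and 0.271). The lower gene was Lcn2, which encodes the neutrophil granule protein lipocalin 2 and is induced in hepatocytes as well. Lcn2 had 413, 1873, 331 and 242 normalized counts in the WT livers and 231, 167, 168 and 322 in the MøFoxO1-KO livers, so WT23 set its mean in WT. Of 11 lineage factors, among them Spi1, which encodes PU.1, 8 were tested with a median of 0.15 and 0 had an unadjusted P under 0.05. Of 18 further monocyte and neutrophil markers, 17 were found in the table and 5 were tested, with a median of 0.40. At an unadjusted P under 0.05, 1 was higher, and 0 were called. The higher gene was Wfdc17, with overlapping groups and a log2 fold change of 2.01 (edgeR, Benjamini-Hochberg adjusted P = 0.152).

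Plac8 was the only member with a mean of at least 50 normalized counts, so the likeness of other genes was ranked for it alone. Over the 8 livers, the tested genes with the highest Pearson correlation to Plac8 in log2 CPM were Trpv2 (r = 0.99), E130317F20Rik (r = 0.98) and Ncf4 (r = 0.97). They are the top of a ranking of 13278 genes over 8 points and are given as a description. Trpv2 had 34.2 normalized counts on average in WT and 52.5 in MøFoxO1-KO livers, Ncf4 had 50.7 and 70.6, and E130317F20Rik had 11.9 and 14.6. KO29 was the highest liver for all 3, as it was for Plac8.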

How the data were processed

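Liver RNA of 4 MøFoxO1-KO mice and 4 WT littermates was sequenced, and the authors deposited raw counts of reads per gene, 1 column per mouse, without normalization. Per the labels, STAR, featureCounts and mm10 were used. Versions, strandedness and how reads with several matches were handled are not given in the sources used here. The deposited summed exon length of each gene served for levels per length. Symbols came from GENCODE M21 (46005 of 46517 genes, with 0.0399% of the counts in the other 512).

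Genes were filtered with filterByExpr (minimum count 10, minimum total 15), which left 13278. After TMM scaling, edgeR 4.0.16 (R 4.3.3) fitted genotype alone, with its quasi-likelihood test. P values were adjusted by Benjamini-Hochberg over all tested genes, and standard errors and 95% intervals were derived from the F statistic. A gene was called when its adjusted P fell under 0.05 and its log2 fold change exceeded 1.5 in size. Of the 10 members, 6 passed the filter. Since a filter on low counts can favor genes that are high in 1 group, normalized counts of all 10 went through a two-sided exact permutation test in scipy 1.17.1, 1 test per member and unadjusted. Intervals of shares are exact binomial (Clopper-Pearson).

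Alternatives were DESeq2 1.42.0, limma-voom (limma 3.58.1), the robust fit, other scalings and filters, and leaving out each mouse. Leaving out WT24 and KO29 together and summing Ly6c1 with Ly6c2 were chosen after seeing the data. The members and lists were chosen with earlier results of these data known. All members were named. Of each list of trafficking, granule, lineage and further marker genes, those past the call, or past an unadjusted P under 0.05 with groups that did not overlap, were named. Ccr2, Ccl2, Lcn2, Prtn3, Cyba, Ncf1, Wfdc17, Spi1, Alb, Apoa1, Serpina1a, Marco, Timd4, Elane and Cebpe were named after their values were seen. Of 128 listed genes, 127 matched a symbol. Fits were tested on simulated data.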

Additional observations from a re-analysis of the deposited data

Results flagged for a closer look

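In MøFoxO1-KO livers, KO29 lay far above the other 3 for Ly6c2, with 61.6 normalized counts, and for Itgam, with 86.2. In each case the gap to the next MøFoxO1-KO liver took up most of the range of the group (a share of 0.889 for Ly6c2 and 0.848 for Itgam). With 20 groups of 4 examined, about 1 in 20 is passed by chance. The liver was also the highest for the summed Kupffer cell and lymphocyte markers, and the part of those cells was not tested.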

How the results depend on the processing

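No member was called under any alternative setting, in which the smallest adjusted P of a tested member was 0.241 (Plac8, Benjamini-Hochberg). Over all tested genes, 25 were called. The count was 144 with DESeq2, 13 with limma-voom, 120 without a filter on low counts, 39 without the limit on the fold change and 210 with an unadjusted P, and leaving out single mice gave 3 (without WT25) to 82 (without KO28). Leaving out single mice moved the log2 fold change from -0.39 to 0.81 for Ly6c2, from 0.07 to 1.05 for Itgam, from 0.27 to 0.86 for Plac8, from -0.40 to 0.31 for S100a8, from -0.84 to 0.42 for S100a9 and from -0.30 to 0.50 for Csf3r. The direction turned in 14 of 94 fits, for 4 of the 6 members, each time with mice left out, and the log2 fold change of Ly6c2 was -0.033 without WT24 and KO29. S100a8 and S100a9 could not be fitted with a minimum of 10 counts in every liver. The other fits kept the direction of every tested member. By ratios of group means, which include Chil3, Retnlg and Mpo, Csf3r turned to -0.15 on library totals without TMM. Without KO29, Chil3 turned to -0.61 and Ly6c2 to -0.38, and without KO28 Retnlg turned to -0.04. S100a8, S100a9 and Csf3r also turned in several ratios with single mice left out, while Itgam, Plac8 and Mpo kept their direction. Retnlg, Ly6g and Mpo are limited by depth, and Chil3 also by its spread between livers, from 1 to 27 counts. No paired analysis was possible because the mice of the 2 groups carry different numbers.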

Other observations

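Cebpe, a transcription factor of late granulocytes that was on the list of lineage factors, had 260, 0, 145 and 234 counts in WT22, WT23, WT24 and WT25 and 288, 241, 241 and 187 in KO26, KO27, KO28 and KO29. It was listed at 0 in WT23 and at 145 or more in the other 7 livers, although Ly6g, a marker of the same cells, had at most 1 count in any liver. Elane, which encodes neutrophil elastase and is made in marrow precursors, had 21 counts in WT23 and 14 in KO28, and at most 7 in the other 6 livers, so its order of livers differed from that of Csf3r and S100a9.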
